A study of Mus musculus with 6 samples.

Results

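Complement genes were followed in mouse embryonic fibroblasts (MEFs) at day 8 of reprogramming: C3, C4b, C1s, C1ra, Cfb, C2, Cd55, C3ar1 and C5ar1. The 9 genes were chosen by name as complement components, a regulator and receptors, with earlier results of these data known. Of the 41174 probes on the array, 15 carry one of these names. Of the 9 genes, 7 were bright enough to be tested, out of 16472 genes tested in all. Gene expression was measured with 6 Agilent 1-colour arrays, hybridised with Cy3-labelled RNA. Every culture was infected with the factors that the labels abbreviate SKO, so no array shows MEFs without them. One group received Flag in addition, another Gadd45a, a small protein induced by DNA damage and other stress, and the last group G39A, a mutant of Gadd45a that the labels call negative. After infection the cells grew for 6 days in a DMEM medium with fetal bovine serum and leukaemia inhibitory factor (LIF), and RNA was taken from whole cultures. The labels do not spell out SKO, do not say what the Flag virus carries, and give no promoter or strain. Each group has 2 arrays, numbered replicate 1 and replicate 2, and nothing says that the numbers stand for separate cultures, so a p-value here reflects no more than the spread of these arrays, which may be technical.

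Complement is a cascade of plasma proteins that marks microbes and cell debris for removal. In the classical pathway the protease C1r activates C1s, C1s cuts C4 and C2, and the pieces form an enzyme that splits C3. Factor B forms the corresponding C3-splitting enzyme of the alternative pathway, CD55 takes both enzymes apart on the cell's own surface, and the receptors for C3a and C5a read the small fragments that are released. The liver makes most of the plasma proteins, but fibroblasts and macrophages make several of them locally, and cytokines acting through NF-kB, STAT and C/EBP factors raise some of them.

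A processed signal below is the scanner's background-subtracted brightness of a probe in array units, which is not scaled between arrays and cannot be compared between probes. Differences are on the log2 scale after each array's 75th percentile was subtracted, with replicate 2 minus replicate 1 taken within groups and groups compared within replicate number. SE is the standard error from limma, which fitted all genes at once, and a gene is said to rise or fall only where its Benjamini-Hochberg adjusted p over all 16472 genes is under 0.05. "Dim" means that the scanner software did not mark the spot as well above background. Between 57.0% and 62.9% of an array's spots were well above background, and none was saturated. The arrays of replicate 2 stood apart from those of replicate 1: 90.3% of the variance lay along a principal component that separated them. All replicate 2 arrays lie on 1 slide and the replicate 1 arrays on 2 others, so replicate number and slide cannot be told apart. In replicate 1 the Flag and Gadd45a arrays share 1 slide and the G39A array lies on the other. Differences of G39A from either group in replicate 1 are thus also differences between slides. Of the fibroblast markers, 17 of 18 were well above background on all 6 arrays. In replicate 2, 13 of 18 rose, where 33.0% of all genes rose. Pou5f1, the pluripotency gene also called Oct4, read 3851 to 6363 in replicate 1 and was dim on all 3 arrays of replicate 2. Whether its probe also reads an infected factor is not known, since the labels do not spell out SKO. The array's 1 probe for Gadd45a gave lower signals on the arrays labelled Gadd45a than on the Flag arrays, 560 against 1017 in replicate 1 and 1870 against 2309 in replicate 2. It starts at base 878 of the transcript, and whether the virus carries that stretch is not given in the sources used here, so it does not check the labels.

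The probe sequences that matter most for reading the values are those of genes with near copies. Cd55 has a neighbouring copy, Cd55b, and its brightest probe shares a run of 26 bases with the Cd55b probe, shown in capitals (mm9, chr1:132336925-132344911 and chr1:132285273-132307210, both on the minus strand, each crossing an exon junction).
Cd55: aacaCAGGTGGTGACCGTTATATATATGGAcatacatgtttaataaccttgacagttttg
Cd55b: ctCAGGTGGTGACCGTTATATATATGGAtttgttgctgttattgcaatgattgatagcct
No other probe of the 9 genes shares a run of 16 or more bases with a probe of a different gene.

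C4b and its near copy C4a were designed with probes at different places of the transcript, at base 4853 for C4b and at base 597 for C4a (mm9, chr17:34866361-34866420 and chr17:34958899-34958958, minus strand). They are shown because the array's annotation lists accessions of both genes for each of them, so C4b and C4a cannot be told apart here.
C4b: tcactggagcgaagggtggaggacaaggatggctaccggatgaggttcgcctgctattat
C4a: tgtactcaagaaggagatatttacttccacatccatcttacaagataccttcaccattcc

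C2 and Cfb are neighbours that arose from a common ancestor, and the brighter C2 probe lies 5.92 kb from the Cfb probe. The second C2 probe and the Cfb probe are shown because these genes read differently below (mm9, chr17:35000126-35000301 for the second C2 probe and chr17:34993502-34993858 for Cfb, minus strand, both crossing an exon junction).
C2: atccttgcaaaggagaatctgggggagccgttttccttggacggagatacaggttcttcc
Cfb: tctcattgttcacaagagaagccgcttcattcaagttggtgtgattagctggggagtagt

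Between the replicate numbers, C2 and C4b rose and C3 and Cd55 fell in replicate 2, while C1s, C1ra and Cfb did not pass the test. Thus 4 of the 7 tested genes were called, 2 in each direction, in a comparison in which 58.0% of all 16472 genes were called. By direction the background was 33.0% of genes higher and 25.0% lower, so a call alone does not set these genes apart. The median difference of the 7 was 0.14, beside 0.10 over all genes. Scaling by the array median in place of the 75th percentile moved the median of all genes from 0.10 to 0.25 and left the same 4 genes called.

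**Figure D1:**
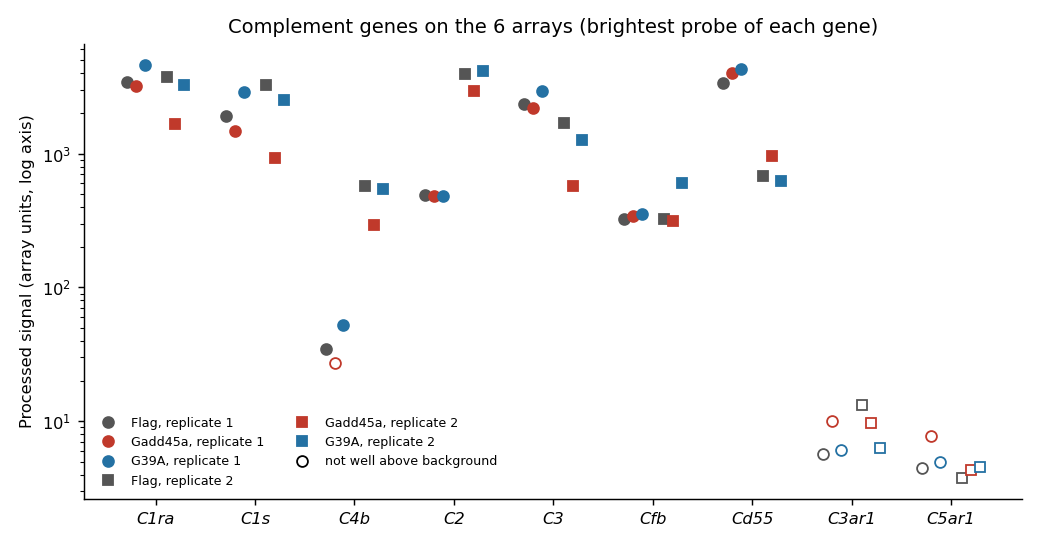
Processed signal of the brightest probe of each complement gene on each of the 6 arrays (log axis, array units), with circles for replicate 1, squares for replicate 2, colours for the groups and open symbols for dim spots. C2 and C4b sit higher in replicate 2 and Cd55 and C3 lower, and both receptors are dim on every array; heights of different genes are not comparable.

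The serine proteases of the first component came first in the cascade. C1ra, which encodes the protease C1r that activates C1s, had 1 probe (mm9, chr6:124473052-124473111, plus strand). Its processed signals were 3444 for Flag, 3201 for Gadd45a and 4612 for G39A in replicate 1, and 3728, 1660 and 3233 in replicate 2. The array labelled Gadd45a in replicate 2 was the lowest of the 6, and the replicate numbers overlapped. The difference between replicate numbers was -0.27 (SE 0.20, limma adjusted p 0.292).

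C1s encodes the protease that cuts C4 and C2, and its 2 probes lie next to C1ra on chromosome 6. The brighter probe (mm9, chr6:124480828-124480887, minus strand) read 1908 for Flag, 1469 for Gadd45a and 2901 for G39A in replicate 1, and 3264, 931 and 2495 in replicate 2. The second (chr6:124481467-124481526) read 303, 226 and 328, then 492, 134 and 403. On both probes the array labelled Gadd45a was the lowest of its replicate number, and the lowest of all 6 arrays was that of replicate 2. Between replicate numbers C1s differed by 0.14 (SE 0.27, limma adjusted p 0.674) on the brighter probe and by 0.26 (SE 0.29, limma adjusted p 0.491) on the second, with overlapping values.

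C4b encodes the fourth component, whose cut form attaches to surfaces. Its signals were 34.4 for Flag, 27.0 for Gadd45a and 52.0 for G39A in replicate 1, of which that of Gadd45a was dim, and 572, 295 and 543 in replicate 2. Every array of replicate 2 lay above every array of replicate 1. The gene rose by 3.80 (SE 0.13, limma adjusted p 0.000147), a ratio of 13.9-fold, with differences of 4.10, 3.64 and 3.67 in Flag, Gadd45a and G39A. With normexp background correction the same rise was 2.46 (SE 0.14, limma adjusted p 2.19e-05), and the replicate 1 signals lie near background. The separate C4a probe was well above background on 1 array, the Flag array of replicate 2, at 28.8.

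C2 encodes the component that joins cut C4 to form the enzyme acting on C3. The brighter of its 2 probes (mm9, chr17:34999575-34999634, minus strand) read 494, 485 and 482 for Flag, Gadd45a and G39A in replicate 1 and 3927, 2922 and 4151 in replicate 2. Its second probe, printed above, read 90.8, 98.7 and 79.2, then 669, 511 and 769. Neither probe had overlapping values between the replicate numbers, and within replicate 1 the brighter probe's unscaled signals lay close together. After scaling, G39A minus Flag in replicate 1 was -0.23 on the brighter probe and -0.40 on the second. C2 rose by 3.07 (SE 0.14, limma adjusted p 0.000281), 8.40-fold, on the brighter probe and by 3.02 (SE 0.21, limma adjusted p 0.000782), 8.10-fold, on the second.

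C3 encodes the protein on which all pathways converge, and its main probe (mm9, chr17:57343416-57343475, minus strand) was printed 10 times on each array. The mean signal over the 10 spots was 2335 for Flag, 2192 for Gadd45a and 2945 for G39A in replicate 1, and 1691, 575 and 1267 in replicate 2. The spots of one array varied by a coefficient of variation of 3.72% to 6.11%, while array means ran from 575 to 2945. In replicate 1 the spots of Flag and Gadd45a overlapped, at 2170 to 2557 and 2012 to 2467. All replicate 2 arrays lay below all replicate 1 arrays, and that labelled Gadd45a was the lowest. C3 fell by 1.03 (SE 0.27, limma adjusted p 0.0341), 2.04-fold lower, and the differences were -0.42 in Flag, -1.74 in Gadd45a and -0.93 in G39A. This call was lost without either G39A array (-1.08, limma adjusted p 0.111) and when dim probes were not filtered out (-1.03, limma adjusted p 0.0902). A second C3 probe (mm9, chr17:57364538-57364695) was well above background on only 2 arrays, at 32.0 on the G39A array of replicate 1 and 25.3 on the Flag array of replicate 2, and was not tested.

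Cfb encodes factor B, the C2 counterpart of the alternative pathway. Its signals were 322 for Flag, 344 for Gadd45a and 353 for G39A in replicate 1, and 323, 311 and 600 in replicate 2. The G39A array of replicate 2 stood above the other 5 arrays, which lay between 311 and 353. Replicate 2 minus replicate 1 was 0.38 (SE 0.24, limma adjusted p 0.236), of which Flag gave 0.05, Gadd45a 0.05 and G39A 1.05.

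Cd55 encodes the membrane regulator that dissociates the C3-splitting enzymes. Its brightest probe read 3378 for Flag, 3980 for Gadd45a and 4252 for G39A in replicate 1, and 681, 965 and 619 in replicate 2. A second probe (mm9, chr1:132344000-132344059, minus strand) lies inside the genomic span of the first and read 1121, 1089 and 1387, then 205, 258 and 190. On both probes the replicate numbers did not overlap. Cd55 fell by 2.20 (SE 0.15, limma adjusted p 0.000708), 4.60-fold lower, and by 2.29 (SE 0.16, limma adjusted p 0.000782), 4.89-fold lower, on the second probe. One more probe named Cd55 lies within the Cd55b locus (mm9, chr1:132288024-132288083) and was dim on all 6 arrays, at 4.32 to 15.0. The Cd55b probe, which shares the 26 bases, was well above background on 1 array, the G39A array of replicate 1, at 22.7.

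C3ar1 and C5ar1, the receptors for C3a and C5a found mainly on myeloid cells, were dim on all 6 arrays. The 2 probes of C3ar1 read 5.66 to 13.1 and 4.87 to 8.80, and the probe of C5ar1 read 3.76 to 7.82. The lowest signal that the software called well above background lay between 17.1 and 35.1 depending on the array, so levels below that could not be measured, and neither gene was tested. The related receptor C5ar2 was well above background on all arrays and rose by 0.57 (SE 0.16, limma adjusted p 0.0380).

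**Figure D2:**
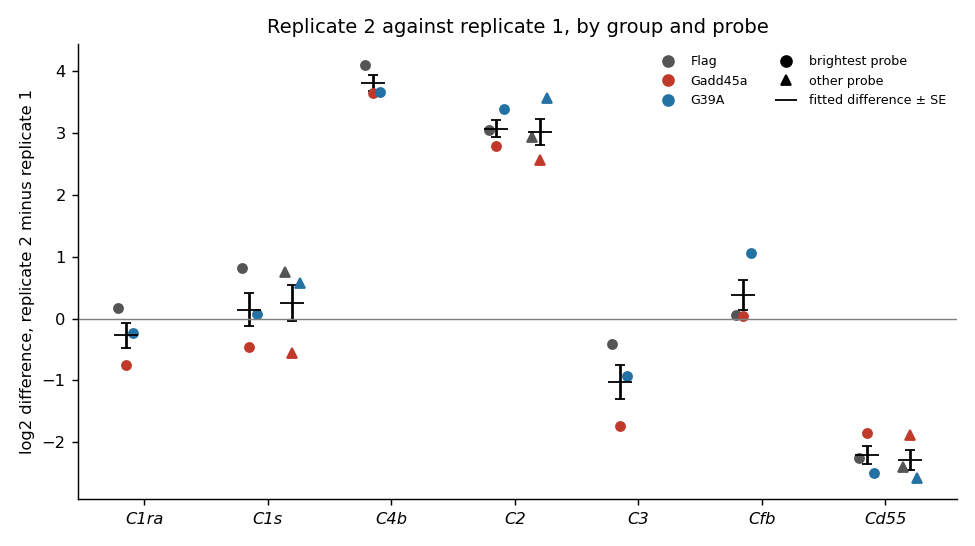
Replicate 2 minus replicate 1 on the log2 scale for the 7 tested genes, with circles for the brightest probe and triangles for a second probe, coloured by group, and the fitted difference with its SE as a black bar. C4b (3.80) and C2 (3.07) lie above 0 and Cd55 (-2.20) and C3 (-1.03) below in all 3 groups. The probes of C1s part in G39A, at 0.07 and 0.58.

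A count of non-overlapping replicate numbers adds Cfb to the 4 called genes on scaled values, 5 of 7, in a comparison in which 69.0% of all genes did not overlap.

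The groups let Gadd45a and its mutant G39A be compared with Flag and with each other. Between the arrays labelled Gadd45a and Flag, the brightest probes of C1s, C3, C1ra, C4b and C2 read lower in both replicate numbers and those of Cd55 and Cfb higher, but none passed the test. The second probes of C2 and Cd55, bright on all 6 arrays, had the opposite sign in replicate 1, at 0.07 and -0.09. The count was 0 of 7 members and 0 of 16472 genes (0%) by limma, and at an unadjusted p under 0.05 it was 2 members, C1s and C4b, beside 8.66% of all genes. By the brightest probe, 5 of 7 members were lower in both replicate numbers, beside 32.3% of all genes. The median of the 7 was -0.14 in replicate 1 and -0.86 in replicate 2, where the medians of all genes were -0.04 and 0.00.

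C1s differed by -0.42 in replicate 1 and -1.71 in replicate 2, which the fit gave as -1.07 (SE 0.33, limma adjusted p 0.552; 95% interval -1.96 to -0.18). On its second probe the values were -0.47 and -1.78. Its activator's gene, C1ra, gave -0.15 and -1.07, a fitted -0.61 (SE 0.24, limma adjusted p 0.597). C3 gave -0.14 and -1.46, a fitted -0.80 (SE 0.34, limma adjusted p 0.617). In these 3 genes the larger difference was that of replicate 2, where each was at least 2-fold lower, as were 2.15% of all genes. No member was at least 2-fold lower in replicate 1, where 1.34% of all genes were. C4b gave -0.39 and -0.86, a fitted -0.63 (SE 0.16, limma adjusted p 0.507), with a dim Gadd45a array in replicate 1. With normexp background correction the fitted value of C4b was -0.40. C2 differed by -0.07 and -0.33 on its brighter probe and by 0.07 and -0.29 on the second. Cd55 differed by 0.19 and 0.60 on the brightest probe and by -0.09 and 0.43 on the second, and Cfb by 0.05 and 0.04. Leaving out single arrays moved the fitted values widely, from -1.58 to -0.56 for C1s, from -1.33 to -0.27 for C3 and from -0.97 to -0.25 for C1ra.

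G39A against Flag moved no member at an unadjusted p under 0.05, where 2.87% of all genes lay, and 0 members and 0% of genes after adjustment by limma. Of the 7 members, 0 were lower in both replicate numbers by their brightest probes, beside 28.2% of all genes. By the brightest probe 0 were higher in both, a count for which no share of all genes was taken. C1s differed by 0.41 and -0.35 on that probe and by -0.08 and -0.25 on the second, C3 by 0.14 and -0.38, and C4b by 0.40 and -0.04 in replicates 1 and 2. The widest of these pairs was that of Cfb, at -0.07 and 0.93, a fitted 0.43 (SE 0.30, limma adjusted p 0.996). The intervals were wide: that of C1s ran from -0.86 to 0.92 and that of C3 from -1.04 to 0.79, which takes in a 2-fold lower level of C3.

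Gadd45a against G39A, which shares the arrays labelled Gadd45a with the first of these comparisons, again called 0 of 7 members and 0% of genes by limma. At an unadjusted p under 0.05 there were 2 members, C4b and C1s, beside 8.59% of all genes. C4b differed by -0.79 and -0.82, a fitted -0.81 (SE 0.16, limma adjusted p 0.548). Its Gadd45a array of replicate 1 was dim, and with normexp background correction the fitted value was -0.48. C1s differed by -0.83 and -1.36, a fitted -1.09 (SE 0.33, limma adjusted p 0.554). C3 gave -0.27 and -1.08, and C1ra -0.37 and -0.90. Lower in both replicate numbers were 4 of 7 members, beside 28.7% of all genes. Cfb changed sign between the numbers, at 0.12 and -0.89, and Cd55 gave 0.06 and 0.70 on its brightest probe and -0.20 and 0.50 on the second.

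**Figure D3:**
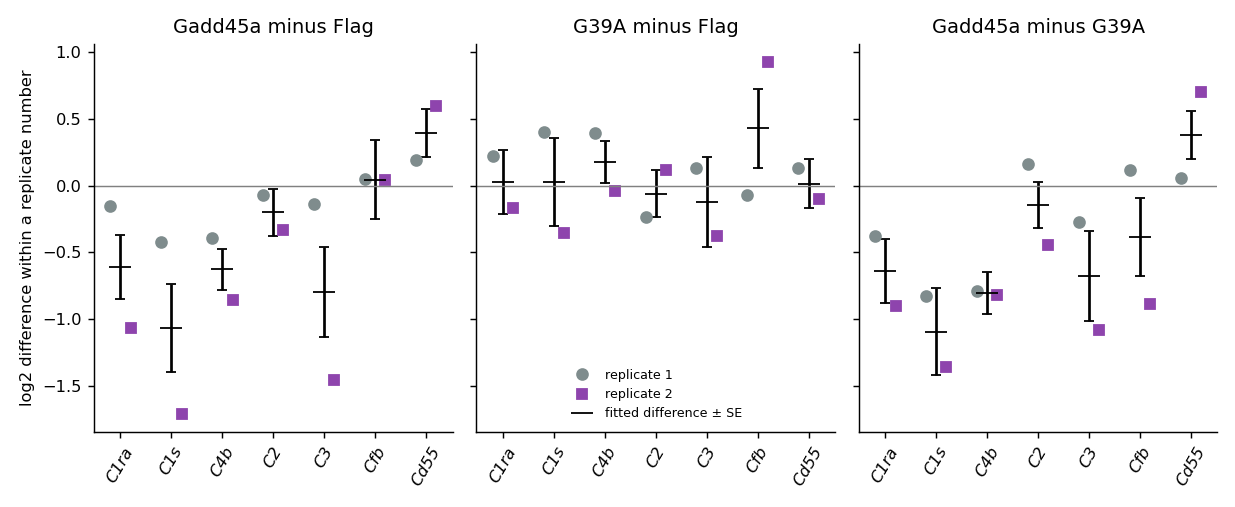
Log2 differences between groups for the 7 tested genes, with circles for replicate 1, squares for replicate 2 and the fitted difference with its SE as a black bar. C1s, C1ra, C4b and C3 lie below 0 in both panels that involve Gadd45a, farthest in replicate 2 for C1s (-1.71 against Flag), and no fitted difference passed the threshold.

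The genes whose pattern over the 6 arrays was most like that of C3 and of C1s were taken from 11928 genes with a symbol that were well above background on all arrays. Likeness is the root mean square difference of log2 values after each gene was centred on its own mean. The closest genes were picked by this measure, so their place below the median gene and their shared pattern follow from the choice. For C3 these were Neurl1b at 0.11, Nkain4 at 0.16 and Egfl6 at 0.17, where the median gene was at 0.76. Neurl1b, for example, read 311, 298 and 345 in replicate 1 and 202, 71.8 and 139 in replicate 2, with the array labelled Gadd45a in replicate 2 the lowest. For C1s they were Plppr4 at 0.20, Stxbp6 at 0.20 and C1qtnf7 at 0.24, where the median gene was at 0.64. C1qtnf7 read 121, 98.8 and 168, then 244, 81.6 and 226.

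Promoter windows of 250 bases before the start site were searched on both strands for 3 motifs: the NF-kB motif, the STAT element TTCNNNGAA and the C/EBP motif TTGCNNAA. RefSeq windows (GRCm38.p6) matched 6 of the 9 genes. A C/EBP motif was found in the window of C3 and in 1 of the 2 windows of C1s, as in 9.56% of all 32851 windows. Neither the NF-kB motif nor the STAT element was found in the windows of the 6 genes, and 7.25% and 7.02% of all windows held them. The 150 bases before the C3 start are shown because C3 differed between replicate numbers, with the motif match, which begins 45 bases before the start, in capitals (GRCm38.p6, chr17:57228137-57228286, minus strand).
C3: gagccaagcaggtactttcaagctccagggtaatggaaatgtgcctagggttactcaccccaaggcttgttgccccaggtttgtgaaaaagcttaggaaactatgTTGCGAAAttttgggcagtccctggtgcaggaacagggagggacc
These letters are a match only, and nothing in the data shows a factor bound there.

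The rest of the complement system was followed with 48 other genes, of which 30 entered the test. On all 6 arrays 18 of them were well above background, and of these 7 rose in replicate 2, 5 fell and 6 were not called, with a median of 0.10, where 33.1% of genes bright on all arrays rose and 23.1% fell. The other 12 tested genes were dim on at least 1 array, and 8 of them rose, which the filter favours because a gene may enter through replicate 2 alone. In the whole list of 30 the count was 15 up and 5 down.

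Inhibitors of the cascade moved in both directions. Clu, the secreted chaperone clusterin that also restrains the terminal complex, fell by 0.88, and Cd59a, a membrane inhibitor of that complex, fell by 0.44, while its dimmer copy Cd59b rose by 0.61. C4bp, whose protein binds cut C4 and serves its degradation, was dim on all of replicate 1 and read 257, 397 and 274 in replicate 2, at least 14.0-fold higher. Cfi, the protease factor I that cleaves C3b and C4b, was likewise dim in replicate 1 and read 75.2, 42.1 and 74.0 in replicate 2, at least 2.85-fold higher. Serping1, the C1 inhibitor, differed by -0.34 (SE 0.13, limma adjusted p 0.0972), from 7779 to 8767 in replicate 1 and from 4671 to 6541 in replicate 2. Cpn2, a subunit of the carboxypeptidase that trims C3a and C5a, was at least 1.98-fold higher.

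Among recognition and initiating proteins, Masp1 rose by 1.59 and Masp2, its partner protease of the lectin pathway, by 1.40. The collectins Colec10, Colec11 and Colec12 rose by 3.69, 1.13 and 2.71, and Colec12 alone of these was bright on all arrays. Colec10 and Colec11 were dim on 2 of the 3 arrays of replicate 1, so their values rest partly on dim spots. Subunits of C1q, made mainly by macrophages, were near background: C1qa was dim in replicate 1 and read 60.2, 29.2 and 40.8 in replicate 2, at least 1.92-fold higher, and C1qc at least 2.32-fold higher. C1qb gave 0.91 (SE 0.39, limma adjusted p 0.115). Beside these, 9 of the 13 tested markers of macrophages and other leukocytes rose and 3 fell, where 33.0% of all genes rose and 25.0% fell. Of the 11 markers bright on all 6 arrays, 7 rose and 3 fell. Summed over all 19 markers, the scaled signal was 6.51 to 7.92 in replicate 1 and 7.97 to 12.6 in replicate 2. It is in units of each array's 75th percentile. Lyz2 rose by 2.85, Ctss by 1.89 and Aif1 by 2.02, Laptm5 fell by 5.79, and Ptprc, Spi1 and Cx3cr1 were dim on all 6 arrays. The part of such cells in the differences of complement genes was not tested, and in whole cultures fewer cells of a type and less RNA per cell cannot be told apart. C1rb, the near copy of C1ra, gave -0.46 (SE 0.21, limma adjusted p 0.128), with 255.7 on the array labelled Gadd45a of replicate 2 and 474 to 690.5 on the others.

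Of the late components, Hc, the gene of C5, fell by 2.56 (SE 0.16, limma adjusted p 0.000598), with signals of 158 to 241 in replicate 1 and 29.3 to 33.2 in replicate 2. C6, C7, C8a, C8b and C9 were dim on all 6 arrays. C8g gave 0.46 and was not called. Cfd, the factor D protease that activates factor B, was well above background on 1 array, at 23.6 on the Flag array of replicate 1, and C4a also on 1. Of the receptors, Itgam, a subunit of complement receptor 3, fell by 3.03 and its partner Itgb2 rose by 1.79, with 2 of its 3 arrays of replicate 1 dim. Cd93 rose by 0.63 and C1qbp by 0.41.

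**Figure D4:**
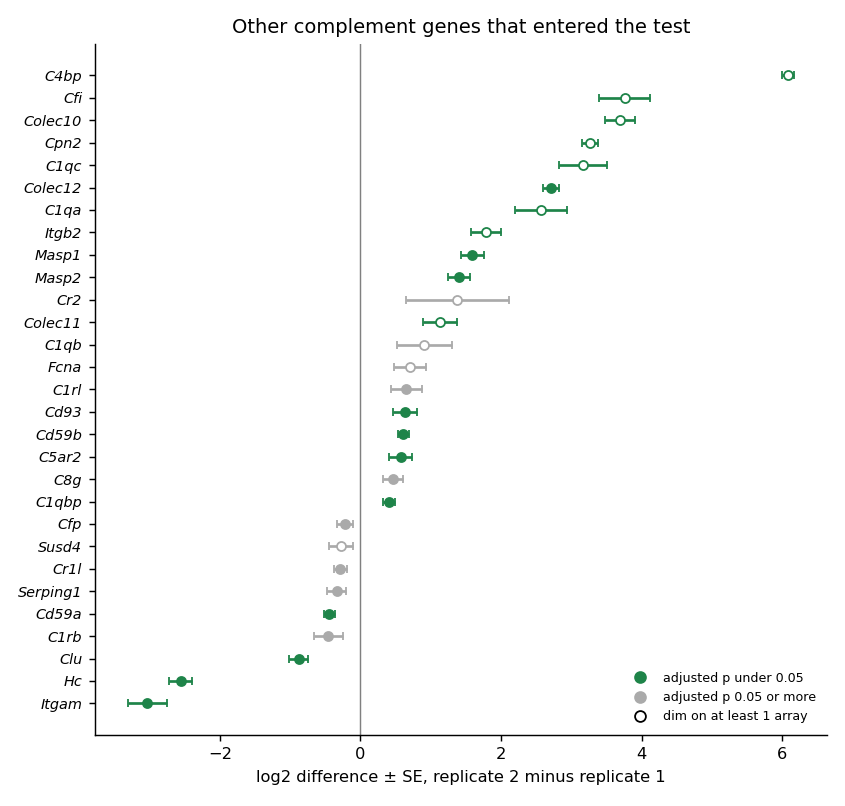
Replicate 2 minus replicate 1 (log2, with SE) for 29 of the 30 other complement genes that entered the test, with filled symbols for genes well above background on all 6 arrays, open symbols for the rest and green for adjusted p under 0.05. Itgam (-3.03) is the lowest and Colec12 (2.71) the highest of the filled symbols; an open symbol's fitted value rests partly on dim signals and is no bound.

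No other complement gene passed the test between groups. In Gadd45a against Flag the smallest p-values were those of Susd4, a membrane complement inhibitor, with -1.39 and -1.61 in replicates 1 and 2 (limma adjusted p 0.399), C4bp with 0.84 and 0.72, Cpn2 with 0.84 and 0.66, and C8g with -0.39 and -1.03. C4bp and Cpn2 were dim in replicate 1, and Susd4 was dim on its array labelled Gadd45a, so their values there are not measured differences. In G39A against Flag they were those of Masp2 (-1.02 and -0.86), Susd4 (-0.33 and -1.06), Colec12 (0.63 and 0.22) and Itgam (0.30 and 1.62), each with a limma adjusted p of 0.996. In Gadd45a against G39A, Masp2 gave 1.48 and 0.83 and C8g -0.55 and -0.97 (limma adjusted p 0.548 for both), beside C4bp and Cpn2 again.

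Cfb, C2 and C4b lie together in the class III part of the major histocompatibility complex on chromosome 17, and their neighbours are given beside them. Of 36 neighbours 25 were tested, all of them well above background on all 6 arrays, and 6 rose and 1 fell, with a median of 0.04. Among all genes bright on all 6 arrays, 33.1% rose and 23.1% fell. Nelfe, 2.0 kb from the Cfb probe, differed by 0.04 (SE 0.08), Skiv2l by -0.18, Dxo by -0.07 and Stk19 by -0.02, though the 2 other probes of Stk19 had the opposite sign. None of these 4 was called. The neighbour with the highest difference was Aif1, a leukocyte gene, at 2.02, followed by 0.59, and the lowest was -0.54 for Tnxb. Pbx2 rose by 0.55, Lta by 0.54 and Atf6b by 0.56. The rises of C2 (3.07) and C4b (3.80) therefore lay above all 25 tested neighbours, and that of Cfb (0.38, not called) lay among them.

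**Figure D5:**
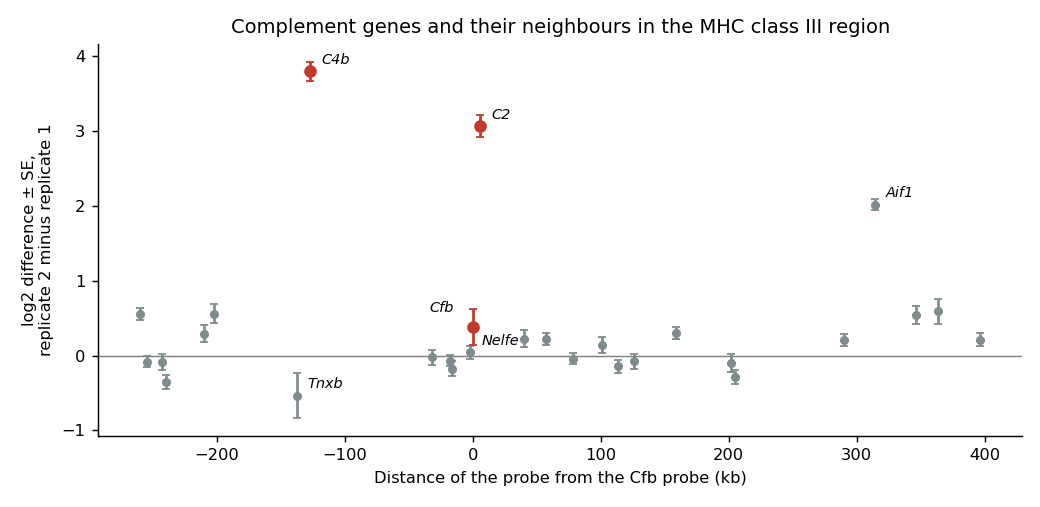
Replicate 2 minus replicate 1 (log2, with SE) of Cfb, C2, C4b (red) and 25 neighbours (grey) by distance of the probe from the Cfb probe in kb. C4b and C2 stand at 3.80 and 3.07 while 24 of the 25 neighbours lie within 1 of 0.

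Genes that respond to the same cytokines moved in both directions between replicate numbers. Of 22 tested NF-kB and acute phase genes, 10 rose and 6 fell, with a median of 0.47. Among all genes bright on all 6 arrays, as these 22 were, 33.1% rose and 23.1% fell. Il1r1, the interleukin 1 receptor, rose by 5.0, Cxcl5 by 3.95, Ptx3 by 2.16 and Cebpb, a C/EBP factor, by 2.22. These were named by smallest p, and the differences of the 22 genes ran from -1.28 to 5.0. Of 29 tested interferon response genes, also bright on all 6 arrays, 7 rose and 0 fell by limma, beside the same 33.1% and 23.1%. An unadjusted limma p under 0.05 was reached by 11 of them, while 58.0% of all 16472 genes were under 0.05 even after adjustment. Iigp1 rose by 4.33, Ifit2 by 1.68, Tap1 by 0.99 and Irf1 by 0.69. Of the 29, called or not, 21 had a difference above 0 and 8 below. The groups did not move alike. Summed over all 30 interferon genes on the array, the scaled signal of Flag was 121 in replicate 1 and 71.8 in replicate 2. That of Gadd45a was 135 and 232, and that of G39A 109 and 194. Between groups the interferon genes had a median for Gadd45a minus Flag of 0.15 in replicate 1 and 2.13 in replicate 2, and for G39A minus Flag of -0.12 and 1.80, with 0 called. In replicate 2, C1s, C1ra and C3 thus read lower on the array labelled Gadd45a than on the Flag array while these genes read higher, and C1s and C3 differed by -0.35 and -0.38 on the G39A array.

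Markers of other cells that the cultures could hold also differed between replicate numbers, and their part in the results was not tested. The counts below stand beside 33.0% of all genes that rose and 25.0% that fell. Of fibroblast markers, Pdgfra rose by 4.79, Col5a1 by 3.20, Col3a1 by 3.01 and Thy1 by 2.67, and the summed scaled signal of all 18 was 855 to 946 in replicate 1 and 1548 to 1614 in replicate 2. Of 7 tested epithelial markers 5 fell and 0 rose, and of the 3 that were bright on all 6 arrays 1 fell and 2 were not called. The filter favours falls among the dimmer genes, because a gene may enter through replicate 1 alone. Krt8 fell by 3.75, and Epcam, Ocln and Cdh1 fell to dim levels, at least 27.9-fold, 8.18-fold and 18.1-fold lower, with summed signals of 6.97 to 7.45 and 2.20 to 3.81. Of 4 tested pluripotency genes 2 fell, Pou5f1 at least 227.8-fold and Zfp42 at least 11.1-fold, and Dppa2 rose by 0.55. Among the 2 of these genes that were bright on all 6 arrays, 1 rose and 0 fell. The Pou5f1 signal may include an infected factor, which was not tested, so its fall need not be one of pluripotent cells. Of 4 tested endothelial genes Emcn rose by 2.09 and Tek and Esam fell by 5.08 and 1.28, each with 2 of the 3 arrays of replicate 2 dim. Of 6 keratinocyte genes 1 rose and 4 fell: Krt17, Krt14 and Krt5 fell by 1.56, 2.69 and 0.61, and Krt6a was at least 1.99-fold lower. None of 9 hepatocyte markers was bright enough to be tested, and 7 were dim on all 6 arrays, among them Alb, Apoa1 and Ttr.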

How the data were processed

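Intensity values were deposited per spot as made by Agilent Feature Extraction 10.7, per the submitters' processing notes. Per the file headers, the processed intensity was background-subtracted and had not been normalized between arrays, and the deposited marks for well above background are 0 or 1. The authors' deposited value table is in log2 units and was an alternative. Its columns correlated with their own array at 0.9989 at the lowest and have medians of 6.17, and no other step behind it is stated in the sources used here.

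Control and outlier spots were left out, spots of a probe averaged, log2 taken and each array's 75th percentile subtracted. RefSeq accessions (GRCm38.p6) gave names to 27660 of 41174 probes, the files to the others. A probe entered when well above background on both arrays of a group or on all 3 of a replicate number (25393 probes). Each gene is its brightest probe: 16472 genes, 3015 with only an identifier. limma 3.58 (R 4.3; lmFit, eBayes) fitted group and replicate number, with 2 residual degrees of freedom, and was tested on simulated data. The median SE was 0.12, and the number of arrays limits the precision. "At least N-fold" sets the bright arrays' mean against the dim arrays' mean of the higher of their own signal and the lowest signal well above background.

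The replicate numbers were taken to pair the arrays, since same-numbered arrays deviated together from their group means (r 0.937 to 0.942 over the 3 group pairs). Members, gene lists and tests were chosen with earlier results of these data known. Named are all members, 10 fixed complement genes (1 of them is not reported here), list members past the threshold (at most 4 for each list that is not complement, by smallest p) or the 4 complement genes of smallest p. Alternatives concerned scaling, background, filter, probe, block, slide and single arrays.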

Additional observations from a re-analysis of the deposited data

Results flagged for a closer look

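For C1s and C1ra, the array labelled Gadd45a moved opposite to the Flag array between the replicate numbers. Replicate 2 minus replicate 1 of C1s was 0.82 (log2) for the Flag arrays, -0.47 for those labelled Gadd45a and 0.066 for those of G39A. On the second C1s probe these differences were 0.75, -0.56 and 0.58. The same differences of C1ra were 0.16, -0.76 and -0.23. Each of these values is the difference of 1 array from 1 other, and whether the groups differ was not tested, since such a model leaves no residual degrees of freedom.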

How the results depend on the processing

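Between replicate numbers, 3 or 4 members were called under all 8 other settings and when any single array was left out. Lost were C3 without a filter on dim probes (adjusted p 0.0902) and without either G39A array, and C4b where all 6 arrays had to be bright, which it could not enter. C4b rose by 2.46 to 3.94 over settings. Calls over all genes changed too, so the member count alone does not set the members apart. They were 9547 of 16472 genes in the main fit and 7320 of 27593 without a filter on dim probes. With normexp background correction they were 10050 of 16472, and fewer genes than in the main fit were called with an array left out. Between groups 0 members were called under every setting. Without the replicate block (pairing), 0 members and 0 genes were called in each comparison between groups, and the fitted differences were the same, such as -1.07 for C1s in Gadd45a against Flag. With slide as a random block (correlation 0.91), 13 genes in Gadd45a against Flag and 3 in G39A against Flag were called, 0 of them members. In G39A against Flag, none called, signs turned with slide as a random or fixed block: C1s -0.023 and -0.029, C2 0.11 and 0.18, Cd55 -0.15 and -0.20. Leaving out single arrays moved uncalled differences, in Gadd45a against Flag from -1.58 to -0.56 for C1s, -1.33 to -0.27 for C3 and -0.97 to -0.25 for C1ra. It turned the sign of others. These ranged for C1s between replicate numbers from -0.20 to 0.44. In Gadd45a against Flag they ranged from -0.21 to 0.30 for Cfb and -0.42 to 0.016 for C2. In G39A against Flag the ranges were -0.58 to 0.34 for C3, -0.047 to 0.40 for C4b, -0.48 to 0.54 for C1s, -0.30 to 0.35 for C1ra, -0.068 to 0.93 for Cfb, -0.30 to 0.18 for C2 and -0.20 to 0.24 for Cd55. In Gadd45a against G39A they were -0.89 to 0.12 for Cfb and -0.38 to 0.10 for C2. Where an array is left out, its partner is assumed to vary like the other groups. The cause of these changes was not tested.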
